A study of Homo sapiens with 8 samples.

Results

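Of the 10429 sgRNAs counted in the screen, 63 were chosen by gene name as mitotic kinase and kinesin sgRNAs. The rule took every sgRNA whose gene symbol begins with PLK, NEK or KIF and a digit, with AURKA, AURKB, AURKC or BUB1, or is TTK or HASPIN (formerly GSG2). It found 9 of the 1420 targeted genes, each with 7 sgRNAs: the polo-like kinases *PLK1* and *PLK4*, the Aurora kinases *AURKA*, *AURKB* and *AURKC*, the kinases *NEK2* and *TTK*, the kinesin *KIF11*, and *AURKAIP1*. No sgRNA of the library was named for BUB1 or HASPIN. *AURKAIP1* entered only because its symbol starts like that of *AURKA*. It is not a kinase, and its protein is known as a binding partner of Aurora A and as a component of the small subunit of the mitochondrial ribosome. The rule used names alone and no measured value.

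The screen asked which gene losses shift the level of PRMT5, an arginine methyltransferase. It used COV362, an established cell line of high-grade serous ovarian cancer, in a platinum-resistant form that expressed Cas9, so all results come from a single line. Cas9 cuts DNA where the sgRNA matches, and faulty repair often inactivates the gene, so counting integrated sgRNAs shows which knockouts a population carries. After transduction and puromycin selection the cells were divided into 4 replicates, grown for about 2 weeks, stained for PRMT5 and sorted. The 20% of cells with the most PRMT5 (PRMT5hi) and the 20% with the least (PRMT5lo) gave 4 libraries each, and both populations carried the same library, Cas9 and resistance. The replicates separated only after transduction, so all p-values refer to cultures of 1 set of transduced cells. For 12.1% of all sgRNAs in PRMT5hi and 17.6% in PRMT5lo, the variance was that of read counting alone. For these sgRNAs it held no added spread between cultures.

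Mitotic kinases order the events of cell division by phosphorylation. Polo-like and Aurora kinases build the spindle and attach chromosomes to it, NEK2 releases the centrosome pair, PLK4 starts the assembly of new centrioles, TTK holds the cell in mitosis until chromosomes are attached, and the motor KIF11 slides microtubules apart to form a bipolar spindle. Because proliferating cells depend on most of these proteins, sgRNAs against such genes are commonly lost from a growing culture.

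Abundance was measured in CPM, read counts scaled to one common total per library, as the authors' mean over the 4 libraries of a population. The standard error (SE) printed with a value is that of the authors' fraction of reads, from their variance of it over those libraries. This fraction is estimated apart from the mean CPM and can differ slightly from it. An SE in percent is relative to the fraction. The populations held 16166859 reads in PRMT5hi and 19117396 in PRMT5lo, or 388 and 458 reads per sgRNA and library. A count of 3 reads, the most that a count of 0 allows, equals 0.186 CPM in PRMT5hi and 0.157 CPM in PRMT5lo. These limits cover counting error only, because PCR copies reads and the study's methods describe no molecular identifiers to remove copies. The median SE of the mitotic sgRNAs was 16.8% of the value in PRMT5hi and 13.8% in PRMT5lo, against 11.7% and 10.4% over all targeting sgRNAs. The SE of the mitotic sgRNAs was a median of 4.22 and 3.85 times what read counting alone would give, against 4.26 and 4.11 over all targeting sgRNAs.

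sgRNAs against the mitotic genes were scarce in both populations. Their median abundance, taken as the mean CPM of both populations, was 45.6 CPM, 1.87-fold below the 85.3 CPM of all 9929 targeting sgRNAs, while the 500 control sgRNAs stood at 123 CPM. The medians in the separate populations were 45.7 CPM in PRMT5hi and 44.6 CPM in PRMT5lo. Of the 63 sgRNAs, 52 lay below the median of all targeting sgRNAs, and 11 (17.5%) were under 20 CPM, against 3.38% of all targeting sgRNAs. Only 9 (14.3%) exceeded 100 CPM, against 38.6% of all targeting sgRNAs. Together the members made up 0.604% of the sgRNAs and took 0.359% of the reads in PRMT5hi and 0.369% in PRMT5lo. NEK2_6 and TTK_7 alone supplied 14.2% of the members' reads in each population. These abundances describe the sorted cells after culture. The composition of the library before culture was not analysed here, so an sgRNA lost during growth cannot be told apart from one that was rare from the start.

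The median abundance of these sgRNAs lay between that of broadly essential genes and that of receptors known from the brain. A list of 15 essential genes (subunits of the proteasome, DNA polymerases, ribonucleotide reductase, and factors of translation, splicing, transcription and ribosome assembly) had a median of 33.5 CPM over 105 sgRNAs, 34.3% of them under 20 CPM. A list of 23 dopamine, serotonin and GABA receptor genes had a median of 86.7 CPM over 161 sgRNAs, with 1.24% under 20 CPM. A list of 11 other cell cycle and mitosis genes, chosen by hand and not complete for the library (*CDK1*, the cyclins A and B, *CHEK1*, *CIT*, *MELK*, *TOP2A* and *WEE2*), had a median of 75.7 CPM over 77 sgRNAs. The medians of its single genes ran from 35.6 CPM for *CDK1* to 130 CPM for *CCNB3*, a range that overlapped that of the mitotic genes. Without *AURKC* and *AURKAIP1* the median of the mitotic sgRNAs was 43.4 CPM. No gene was left out of the other lists in this way. All of these lists were chosen with earlier results of these data known. These medians are descriptions, and the differences between lists were not tested.

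Genes differed widely in abundance. By the median over its sgRNAs, *PLK1* ranked 6 from the lowest of 1420 genes at 15.8 CPM, *KIF11* ranked 23 at 28.4 CPM, *AURKAIP1* 24 at 29.1 CPM, *PLK4* 61 at 43.4 CPM and *AURKA* 83 at 45.6 CPM. *TTK* ranked 145 at 53.0 CPM, *AURKB* 146 at 53.2 CPM and *NEK2* 234 at 61.7 CPM. *AURKC*, the Aurora kinase of germ cells and meiosis, stood apart at rank 1298 and 123 CPM, the level of the control sgRNAs. For *PLK1*, *KIF11*, *PLK4*, *AURKB* and *AURKAIP1*, all 7 sgRNAs lay below the median of the targeting sgRNAs. That was so for 6 sgRNAs of *TTK*, 5 of *AURKA*, 4 of *NEK2* and 2 of *AURKC*. The ranges of single sgRNAs overlapped between most of these genes, and neighbours in the order, such as *KIF11* and *AURKAIP1* or *TTK* and *AURKB*, differed by less than the spread over their sgRNAs.

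Between the sorted populations, no mitotic gene was enriched in either direction. The log2 ratio of an sgRNA was log2 of CPM + 1 in PRMT5lo over CPM + 1 in PRMT5hi, so a negative value marks higher abundance in PRMT5hi cells, and the added 1 CPM understates changes of rare sgRNAs. A gene was called at a one-sided p under 0.01, combined over its sgRNAs by Fisher's method, together with a mean log2 ratio beyond 0.25. Adjusted p-values are by the Benjamini-Hochberg method over all genes, or over all sgRNAs for single sgRNAs. The test of each sgRNA approximates the error from 4 libraries per population, and no exact test over libraries could be made from the pooled values. Of the 9 genes, 0 passed toward PRMT5hi, where 0.845% of all genes were called, and 0 toward PRMT5lo, where 0.704% were called. With shares this low, 0 of 9 does not set the mitotic genes apart from the rest of the library. At an unadjusted p under 0.01 with no limit on the mean, 1 of the 9 genes (*NEK2*) passed toward PRMT5hi, against 2.68% of all genes. The gene means ran from -0.40 for *PLK1* to 0.31 for *TTK*, with 5 above 0 and 4 below. Over the 63 sgRNAs the median ratio was -0.04, 29 were above 0, 33 below and 1 at 0.

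The ratios of the mitotic sgRNAs scattered more than those of other sgRNAs, with an SD of 0.46 against 0.29 over all targeting and 0.25 over control sgRNAs. A ratio beyond 0.5 in either direction was seen for 13 of them (20.6%), 6 toward PRMT5lo and 7 toward PRMT5hi, against 8.46% of all targeting sgRNAs. Scatter rose as abundance fell across the whole library. Among all targeting sgRNAs the SD was 0.68 under 10 CPM, 0.52 from 10 to 20 CPM, 0.38 from 20 to 50 CPM, 0.28 from 50 to 100 CPM and 0.22 above. Within these bins the mitotic sgRNAs had SDs of 0.67, 0.56, 0.46, 0.30 and 0.29, over 5, 6, 27, 16 and 9 sgRNAs. The members' SD was thus close to that of equally abundant sgRNAs under 20 CPM and from 50 to 100 CPM, and lay above it from 20 to 50 CPM and above 100 CPM. The difference in SD was not tested.

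sgRNAs against *PLK1*, the kinase that drives mitotic entry, spindle assembly and cytokinesis, were the rarest of the set. *PLK1* lies on chromosome 16 of GRCh38.p14 from 23678889 to 23690367. In PRMT5hi cells PLK1_1 to PLK1_7 stood, in order, at 17.2, 24.9, 39.2, 21.9, 7.15, 15.1 and 6.57 CPM. In PRMT5lo cells they stood at 9.08, 26.5, 30.1, 18.6, 2.98, 16.5 and 4.36 CPM. Thus 4 of the 7 had a mean under 20 CPM, and the most abundant, PLK1_3, stayed below the median of targeting sgRNAs. The log2 ratios averaged -0.40 with an SD of 0.44 over the 7 sgRNAs, equal to 1.32-fold more in PRMT5hi cells, and 5 of 7 sgRNAs were more abundant there. This was the fourth most negative mean of all genes, but its one-sided p was 0.0793 (adjusted p of 0.640). Summed over the sgRNAs, the log2 ratio was -0.29 with a 95% interval from -0.75 to 0.17. The ratio was furthest from 0 for PLK1_5, at -1.03 between 7.15 ± 5.66 and 2.98 ± 1.16 CPM (± SE), and for PLK1_1, at -0.85 between 17.2 ± 3.83 and 9.08 ± 0.68 CPM. Without PLK1_5 the mean was -0.29 and without PLK1_1 -0.32, and the median over all 7 was -0.37. Over the 3 sgRNAs of at least 20 CPM the mean was -0.17.

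sgRNAs against *PLK4*, which starts centriole duplication, pointed in both directions. The gene lies on chromosome 4 from 127880893 to 127899224. PLK4_1 to PLK4_7 stood at 29.0, 7.91, 76.0, 51.0, 41.5, 52.2 and 20.8 CPM in PRMT5hi cells. In PRMT5lo cells the same sgRNAs stood at 57.7, 2.89, 71.8, 44.6, 39.2, 53.2 and 44.5 CPM. PLK4_1 and PLK4_7 had log2 ratios of 0.97 and 1.06, while the rare PLK4_2 had a ratio of -1.20 and the other 4 lay between -0.19 and 0.03. The mean of 0.07 therefore had the largest SD of the 9 genes, 0.77. *PLK4* had a one-sided p toward PRMT5lo of 0.224 (adjusted p of 0.864), and its summed log2 ratio was 0.17 (95% interval -0.14 to 0.49). The mean was -0.08 without PLK4_1 and -0.09 without PLK4_7.

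*AURKA* encodes the Aurora kinase of the centrosome and spindle poles and lies on chromosome 20 from 56369390 to 56392215. AURKA_1 to AURKA_7 stood at 18.2, 0, 84.0, 89.7, 34.6, 50.6 and 44.7 CPM in PRMT5hi cells and at 13.9, 0, 124, 109, 30.6, 40.6 and 61.9 CPM in PRMT5lo cells. AURKA_2 was listed at 0 in both populations, which allows up to 0.186 CPM in PRMT5hi and 0.157 CPM in PRMT5lo, and no ratio can be read from it. Of the other 6 sgRNAs, 3 were higher in each population. With AURKA_2 left out the mean log2 ratio was 0.08, with a one-sided p toward PRMT5lo of 0.0655 (adjusted p of 0.646). Counting it as a ratio of 0, as the test over all sgRNAs does, gave 0.07 (SD 0.37) and 0.0902 (adjusted p of 0.723). Without AURKA_3 the mean was -0.02. Summed over sgRNAs, where the more abundant ones weigh more, the log2 ratio was 0.24 (95% interval -0.02 to 0.50). The summed test gave a one-sided p toward PRMT5lo of 0.0337 (adjusted p of 0.710).

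sgRNAs against *AURKB*, the kinase of the chromosomal passenger complex that corrects faulty attachments, had the most even ratios. *AURKB* lies on chromosome 17 from 8204731 to 8210575. AURKB_1 to AURKB_7 stood at 55.3, 22.3, 45.7, 51.5, 55.2, 52.1 and 73.9 CPM in PRMT5hi cells and at 73.0, 26.8, 46.2, 47.3, 69.1, 54.4 and 77.2 CPM in PRMT5lo cells. By CPM they were higher in PRMT5lo for 6 of 7, by ratios of 0.02 to 0.40. For AURKB_3, the lowest of these, the test on fractions of reads pointed the other way, with a t of -0.28. The mean of 0.14 had an SD of 0.19, the lowest of the set. The test toward PRMT5lo gave a one-sided p of 0.136 (adjusted p of 0.782), and the summed log2 ratio was 0.14 (95% interval -0.12 to 0.40).

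*AURKC* lies on chromosome 19 from 57231023 to 57235548. AURKC_1 to AURKC_7 stood at 52.6, 134, 92.0, 174, 50.4, 118 and 187 CPM in PRMT5hi cells and at 38.7, 198, 109, 201, 48.5, 128 and 147 CPM in PRMT5lo cells. The gene had 5 sgRNAs above 90 CPM in both populations, more than any other of the 9 genes. Its mean log2 ratio of 0.04 (SD 0.35) came from 4 sgRNAs higher in PRMT5lo and 3 higher in PRMT5hi, with a one-sided p toward PRMT5lo of 0.0640 (adjusted p of 0.642). The summed log2 ratio was 0.10 (95% interval -0.08 to 0.28). AURKC_2 had the largest ratio, 0.56, between 134 ± 9.21 CPM in PRMT5hi and 198 ± 3.20 CPM in PRMT5lo (± SE). Without it the mean turned to -0.05 and the p toward PRMT5lo was 0.580. Over all 7 sgRNAs, AURKC_2 included, the p toward PRMT5lo was 0.149 with variances raised to at least the trend of sgRNAs of like abundance.

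*AURKAIP1*, on chromosome 1 from 1373736 to 1375207, was as rare as *KIF11*. AURKAIP1_1 to AURKAIP1_7 stood at 21.9, 23.6, 40.8, 55.8, 77.1, 29.2 and 23.3 CPM in PRMT5hi cells and at 15.5, 34.6, 38.0, 54.3, 61.3, 27.1 and 24.0 CPM in PRMT5lo cells. Its mean log2 ratio was -0.07 (SD 0.32), with 5 of 7 sgRNAs higher in PRMT5hi cells, and the summed log2 ratio was -0.10 (95% interval -0.38 to 0.18). The one-sided p was 0.552 toward PRMT5hi (adjusted p of 0.951) and 0.452 toward PRMT5lo (adjusted p of 0.993). Without AURKAIP1_1 the mean was just above 0, at 0.0023.

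*NEK2*, the kinase that loosens the link between centrosomes before mitosis, had the smallest p of the 9 genes. It lies on chromosome 1 from 211658256 to 211675621. Its sgRNAs NEK2_1 to NEK2_6 and NEK2_16 stood at 51.7, 39.3, 123, 32.7, 109, 265 and 70.7 CPM in PRMT5hi cells. In PRMT5lo cells they stood at 44.6, 40.3, 118, 25.9, 73.9, 265 and 52.7 CPM. NEK2_6 was the most abundant of all 63 sgRNAs and equal in both populations. The mean log2 ratio was -0.22 (SD 0.23), which missed the limit of 0.25, with 5 of 7 sgRNAs more abundant in PRMT5hi cells. The p-values combined to 0.000993, one-sided, rank 12 of the genes toward PRMT5hi, and an adjusted p of 0.117. Much of this came from NEK2_5, at 109 ± 2.60 CPM in PRMT5hi and 73.9 ± 1.93 CPM in PRMT5lo (± SE), a log2 ratio of -0.56 with a one-sided p of 2.0e-05. Both variances of NEK2_5 were the smallest that the authors' method gives, the variance of read counting alone, as for 2.43% of all targeting sgRNAs. Without NEK2_5 the p of the gene was 0.267 (adjusted p of 0.819), and the mean was -0.16. With each variance raised to at least the trend of sgRNAs of like abundance, the p of *NEK2* was 0.106 (adjusted p of 0.993). Leaving out NEK2_2 or NEK2_6 instead moved the mean to -0.26 in each case, past the limit. The summed log2 ratio was -0.17 (95% interval -0.33 to -0.01), with a one-sided p of 0.0239 (adjusted p of 0.531). This interval and p used the variances as given, including the smallest ones of NEK2_5. The summed test was not repeated with the trend variance or without NEK2_5.

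*TTK*, the checkpoint kinase also known as MPS1, had the highest mean of the 9 genes. It lies on chromosome 6 from 80004649 to 80042527. TTK_1 to TTK_7 stood at 10.9, 50.1, 26.7, 80.7, 6.65, 53.0 and 249 CPM in PRMT5hi cells. The values in PRMT5lo cells were 13.9, 55.9, 56.1, 72.9, 9.0, 68.0 and 261 CPM. They were higher in PRMT5lo for 6 of 7, TTK_4 being the exception. The sgRNAs of this gene spanned the widest range of the set, from 7.82 to 255 CPM over both populations, and TTK_1 and TTK_5 were under 20 CPM. The mean log2 ratio was 0.31 (SD 0.37), or 1.24-fold, the seventh highest of all genes. The one-sided p toward PRMT5lo of 0.0666 (adjusted p of 0.652) did not pass. TTK_3 differed most, between 26.7 ± 7.92 and 56.1 ± 17.6 CPM (± SE), a ratio of 1.04, and without it the mean was 0.19. The summed log2 ratio was 0.18 (95% interval -0.02 to 0.38), with a one-sided p of 0.0378 (adjusted p of 0.710).

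*KIF11*, the spindle motor also known as Eg5, lies on chromosome 10 from 92593130 to 92655395 and was the kinesin found by the rule. KIF11_1 to KIF11_7 stood at 33.6, 29.5, 22.7, 25.4, 62.2, 55.2 and 29.7 CPM in PRMT5hi cells. In PRMT5lo cells the values were 44.8, 22.4, 9.66, 14.7, 62.0, 37.8 and 27.1 CPM. All but KIF11_1 were higher in PRMT5hi cells, although KIF11_5 was nearly equal. The mean log2 ratio of -0.36 (SD 0.51), equal to 1.29-fold more in PRMT5hi cells, was the ninth most negative of all genes. Its one-sided p was 0.200 (adjusted p of 0.803), and its summed log2 ratio was -0.24 (95% interval -0.64 to 0.16). The median SE of its sgRNAs was 25% of the value in each population. KIF11_3 had the largest ratio, -1.15, between 22.7 ± 8.22 and 9.66 ± 2.42 CPM (± SE), and without it the mean was -0.23.

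Among single sgRNAs, 1 of 63 passed a one-sided p under 0.05 toward PRMT5hi, against 6.03% of all sgRNAs, and it was NEK2_5. Toward PRMT5lo 5 of 63 passed, against 5.82% of all sgRNAs. These were AURKC_2 with a ratio of 0.56 and a p of 0.00206, AURKAIP1_2 with 0.54 and 0.0167, AURKA_3 with 0.56 and 0.0215, PLK4_1 with 0.97 and 0.0226, and AURKA_7 with 0.46 and 0.0360. They came from 4 genes, and *AURKA* was the gene with more than 1. After Benjamini-Hochberg adjustment over all sgRNAs 0 of the 63 passed in either direction, and the lowest adjusted p was 0.0684 for NEK2_5. Of all 10429 sgRNAs, 0 passed toward PRMT5hi and 4 toward PRMT5lo at an adjusted p under 0.05. The variance in PRMT5lo was at the smallest value for AURKC_2, AURKAIP1_2 and AURKA_7. With variances raised to at least the trend, AURKAIP1_2 had a p of 0.135 and AURKA_7 one of 0.103. In that setting 1 of 63 passed toward PRMT5hi, NEK2_5 with a p of 0.0276, against 2.06% of all sgRNAs. Toward PRMT5lo 3 of 63 passed, AURKC_2, AURKA_3 and PLK4_1, against 2.07% of all sgRNAs.

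The lists of other cell cycle, broadly essential and brain receptor genes held no called gene either. Over all genes 0.845% were called toward PRMT5hi and 0.704% toward PRMT5lo. At such shares, 0 calls in short lists do not set them apart from the library. With no limit on the mean, 2 of the 23 receptor genes passed a one-sided Fisher p under 0.01 toward PRMT5hi, as *NEK2* did, against 2.68% of all genes. They were *HTR1F*, with a mean of -0.24 and a p of 0.000979 (adjusted p of 0.117), and *GABRA4*, with -0.19 and 0.00158 (adjusted p of 0.149). In the other lists 0 genes did so. The means of the 11 cell cycle and mitosis genes ran from -0.32 for *CCNA2* to 0.18 for *TOP2A*, with 5 above 0 and 6 below. *CDK1*, the cyclin-dependent kinase that triggers mitosis, had a mean of 0.02 and a median of 35.6 CPM, and its partner *CCNB1* a mean of -0.04 and 39.1 CPM. *CIT*, a kinase of cytokinesis, had a mean of -0.21. The SD of the ratios was 0.33 over these 77 sgRNAs and 0.50 over the 105 sgRNAs against broadly essential genes, whose gene means ran from -0.48 to 0.31 with none called. The ends of that range were *RRM1*, a subunit of ribonucleotide reductase, at a median of 6.19 CPM, and *IARS*, a tRNA synthetase, at 20.3 CPM. The means of *PLK1* and *KIF11* lay inside this range, and that of *TTK* just above it.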

How the data were processed

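The authors mapped single-end reads of 4 PRMT5hi and 4 PRMT5lo libraries to the sgRNA library and tested each sgRNA between the populations with the CB2 package. FastQC and hg38 appear in the submitters' processing notes. Versions were not given in the sources used. The deposited sgRNA table gives CPM, the fraction of reads and the variance of that fraction, each made by the authors over the 4 libraries of a population. It holds no value of a single library. The deposited log2 ratios, scores and p-values are the authors' own comparisons and were not used, nor was their table per gene. From the fractions and variances the CB2 test was recomputed in Python 3.11.15 with NumPy 2.4.6, pandas 2.3.3 and SciPy 1.17.1: the difference of fractions over its SE, with Welch's degrees of freedom and one-sided p-values. These were combined per gene by Fisher's method. The sgRNA test was computed for all 10429 sgRNAs and the gene test for all 1420 genes, with Benjamini-Hochberg adjustment over each. The summed test adds fractions and variances over the sgRNAs of a gene. The script was tested on simulated data. Depth was recovered from the smallest variances, which gave whole reads within 0.05 in 100% of such sgRNAs. The trend variance used 20 abundance bins, and its use in the gene test, like leaving out sgRNAs listed at 0, was chosen after seeing the data. All member genes are named. The members and lists were chosen with earlier results of these data known. Coordinates come from RefSeq on GRCh38.p14. sgRNA sequences were not used here, so cut positions and cutting of related genes were not examined. Alternatives were pseudocounts of 5 and 10 CPM, a minimum of 20 CPM, centring on control sgRNAs, the median over sgRNAs, Stouffer's method, summed fractions, other p limits and leaving out each sgRNA.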

Additional observations from a re-analysis of the deposited data

How the results depend on the processing

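No mitotic gene was called in either direction under the pseudocounts, filters, centring, combinations of p-values and p limits tried as alternatives. *NEK2* was the exception where the limit on the mean was dropped at a p under 0.01. Leaving out 1 sgRNA at a time gave 0 to 1 genes toward PRMT5hi, the 1 being *NEK2* without NEK2_2 or without NEK2_6, and 0 toward PRMT5lo. Of the 1 sgRNA that passed toward PRMT5hi, 0 passed at an adjusted p under 0.05. Of the 5 toward PRMT5lo, 3 passed with the trend variance, against 2.07% of all sgRNAs, and 0 at an adjusted p under 0.05, against 0.0384%. At a p under 0.01 it was 1, and the share of all sgRNAs at that limit was not computed. With the trend variance 3 genes of the library were called toward PRMT5hi and 2 toward PRMT5lo, against 12 and 10 otherwise. An adjusted p under 0.05 gave 3 and 2 genes, and a p under 0.001 gave 5 and 2. The median over sgRNAs gave 7 and 13 genes, a pseudocount of 10 CPM 9 and 4, Stouffer's method 17 and 13, and summed fractions 16 and 11. Over single sgRNAs the trend variance gave 215 and 216 calls against 629 and 607. With a pseudocount of 10 CPM the mean of *PLK1* was -0.20, of *KIF11* -0.25 and of *TTK* 0.23. The *NEK2* p from Stouffer's method was 0.00450 (adjusted p of 0.346), and leaving out 1 sgRNA gave 0.000481 to 0.267. The causes were not tested. No paired analysis was possible because the columns are summaries over the 4 libraries of a population, and for the same reason no library could be left out. Leaving out 1 sgRNA turned the sign of the mean of *AURKA*, *AURKC*, *PLK4* and *AURKAIP1*, all uncalled. The median SE of *PLK1* sgRNAs was 17.8% of the value in PRMT5hi and 26.3% in PRMT5lo. The median SE over the members was 4.22 and 3.85 times the counting error, against 4.26 and 4.11 over all targeting sgRNAs.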
